A study of Mus musculus with 15 samples.

Results

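The chemokine ligand genes were described in whole mammary tumors of mice that differ in their beta-catenin gene, Ctnnb1. The family was a fixed list of 36 ligand genes. For 35 of them the array held a transcript cluster (the probes for 1 transcribed region) that names this gene alone, out of 22180 genes with such a cluster. Ccl19 was left out, because each of the 13 clusters that name it also names other genes. All 15 tumors came from ErbB2KI mice, a knock-in model of Erbb2-driven breast cancer, and were frozen at end burden. They carried wild-type (Ctnnb1 wt/wt, WT), heterozygous floxed (Ctnnb1 fl/wt, HET) or homozygous floxed (Ctnnb1 fl/fl, HOM) alleles, with 5 tumors of each genotype, and the floxed alleles were meant to be lost in the mammary epithelium only. No source used here gives the Cre driver, the strain or the ages. Each tumor was measured on 1 Affymetrix whole-transcript array, and values are log2 array values, so that a difference of 1 is a doubling of signal.

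Chemokines are small secreted proteins that guide leukocytes along gradients through receptors coupled to G proteins. CXC ligands with a glutamate-leucine-arginine motif draw neutrophils through Cxcr2, most CC ligands draw monocytes, macrophages, eosinophils and lymphocytes through Ccr receptors, and the interferon-induced ligands Cxcl9, Cxcl10 and Cxcl11 draw activated T and NK cells through Cxcr3. In mammary tumors they are made by cancer cells, fibroblasts, endothelium and the leukocytes themselves, so their RNA in a whole tumor reports on several cell types at once. Fewer cells of a type and less RNA per cell cannot be told apart in these data.

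Before the family was compared, the labels and the makeup of the tumors were checked. Ctnnb1 itself had a mean of 11.84 ± 0.39 in WT tumors, 11.50 ± 0.19 in HET tumors and 11.48 ± 0.33 in HOM tumors (SD, n = 5 each), and neither HET nor HOM passed against WT in a two-sided exact permutation test (p = 0.0952 and 0.143, not adjusted for the 3 comparisons). The tumors labelled WT 5 (11.22) and HOM 5 (12.01) went against their labels, and the differences named for the ligands are therefore also given without both. Erbb2, the gene that drives the model, had a mean of 11.11 ± 0.88 in WT, 12.70 ± 0.23 in HET and 11.53 ± 1.04 in HOM tumors. Every HET tumor (12.39 to 12.92) lay above every WT tumor (9.63 to 11.85), as in 0.534% of all tested genes. Epithelial markers were high in 14 tumors (9.66 to 11.12) and 7.76 in HET 1. HET 1 also had the highest mean of B and plasma cell markers, 9.25 against 5.29 to 6.62 in the others. HET 3 stood apart in skeletal muscle markers, with 10.82 against 5.30 to 6.12. WT 1 had the lowest pan-leukocyte mean, 8.18 against 8.73 to 10.32.

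The chemokine ligands varied more from tumor to tumor than most genes on the array. The distance between the lowest and the highest tumor had a median of 3.71 over the 33 ligands that could be tested, against 1.14 over all 14243 genes tested. Ccl1 and Cxcl15 were too dim on most arrays to be tested. Cxcl3, Ppbp and Cxcl13 spanned more than 6, as 0.702% of all tested genes did. WT 1 had the lowest value of 18 of the 35 ligands. The highest values were spread over the tumors, with 7 in HET 4, 5 each in HET 1, HET 2 and HOM 5, and 3 each in HET 5 and HOM 4.

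**Figure D1:**
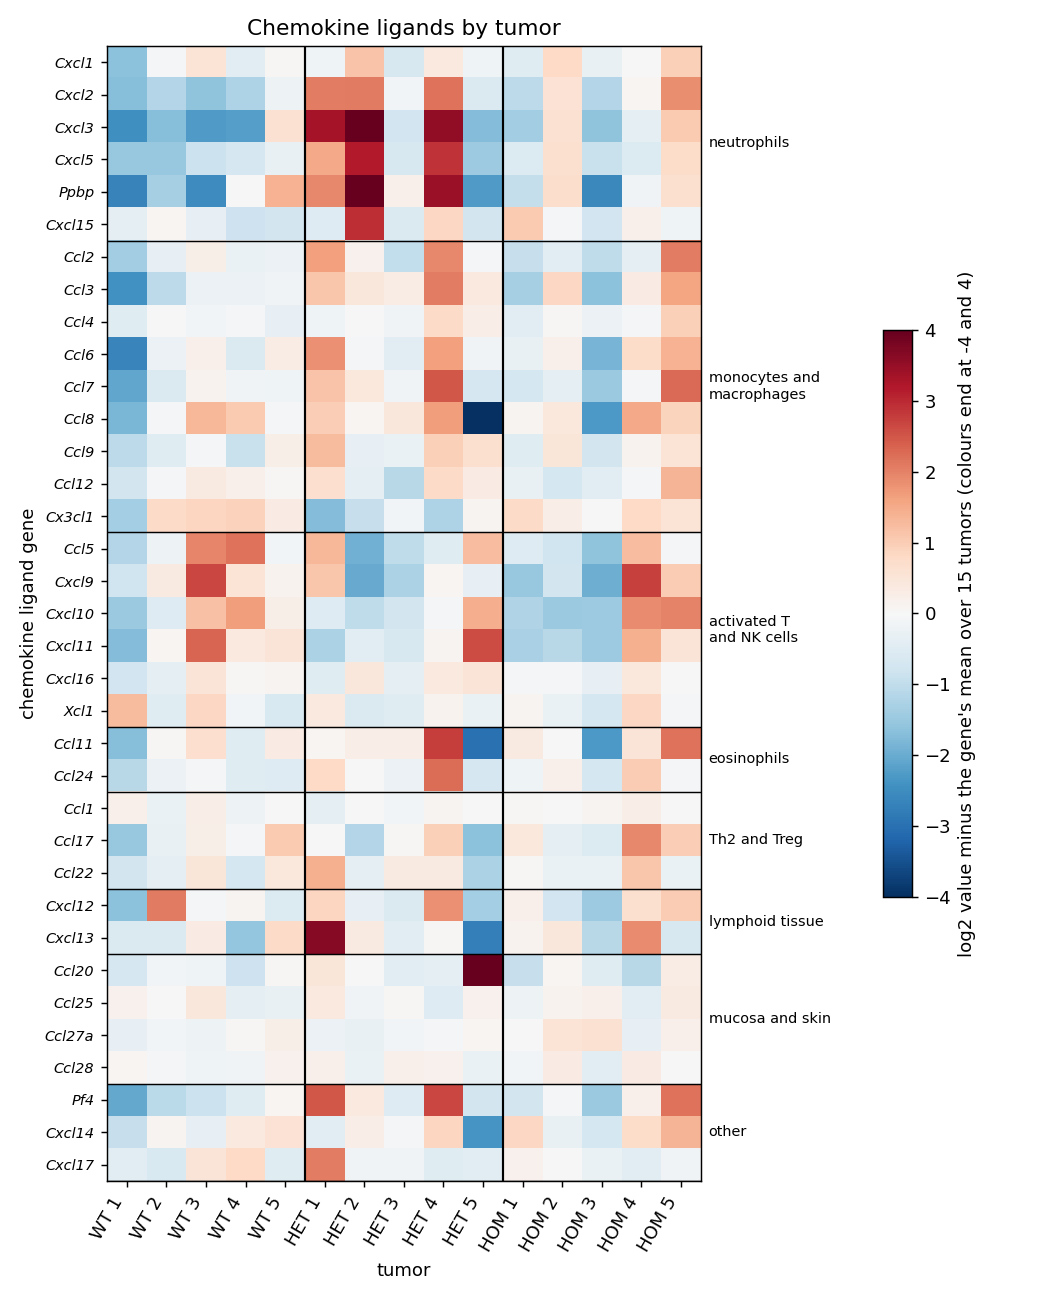
Each row is a chemokine ligand gene, grouped by the leukocytes it is known to attract, and each column a tumor. Colour gives the log2 value minus the gene's mean over the 15 tumors, and colours end at -4 and 4. Cxcl2, Cxcl3, Cxcl5 and Ppbp were high together in HET 1, HET 2 and HET 4, Cxcl13 was highest in HET 1 and Ccl20 in HET 5, and 18 of the 35 ligands were lowest in WT 1.

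The neutrophil-attracting CXC ligands lie side by side on mouse chromosome 5 (GRCm38.p6), where Cxcl5, Ppbp, Pf4, Cxcl3, Cxcl15, Cxcl1 and Cxcl2 follow each other within 147 kb. The 250 bases before the start of 3 of them are shown because they share 1 motif, and those of Ppbp, which was high in the same tumors as Cxcl2 and Cxcl3, because they do not hold it. The sequences are from RefSeq, 5′ to 3′, and capitals mark a narrow form of the NF-kappaB motif, GGGA, any base and TTTCC, searched on both strands.
Cxcl1, chr5:90890995-90891244, plus strand: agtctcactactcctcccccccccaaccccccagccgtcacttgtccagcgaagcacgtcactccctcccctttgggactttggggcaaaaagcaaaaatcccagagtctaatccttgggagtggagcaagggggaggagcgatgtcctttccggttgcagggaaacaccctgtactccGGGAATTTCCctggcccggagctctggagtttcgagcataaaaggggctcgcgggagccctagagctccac
Cxcl2, chr5:90903649-90903898, plus strand: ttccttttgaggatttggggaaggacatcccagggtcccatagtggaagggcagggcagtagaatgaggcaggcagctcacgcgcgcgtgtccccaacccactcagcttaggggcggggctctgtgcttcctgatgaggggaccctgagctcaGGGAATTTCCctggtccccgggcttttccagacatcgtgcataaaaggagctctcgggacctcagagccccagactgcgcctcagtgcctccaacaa
Cxcl3, chr5:90785851-90786100, plus strand: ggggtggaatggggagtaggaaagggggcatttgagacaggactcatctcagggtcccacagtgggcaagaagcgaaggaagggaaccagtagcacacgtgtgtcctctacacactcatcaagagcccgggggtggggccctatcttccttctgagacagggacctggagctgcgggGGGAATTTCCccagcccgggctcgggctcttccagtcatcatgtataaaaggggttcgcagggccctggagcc
Ppbp, chr5:90768268-90768517, plus strand: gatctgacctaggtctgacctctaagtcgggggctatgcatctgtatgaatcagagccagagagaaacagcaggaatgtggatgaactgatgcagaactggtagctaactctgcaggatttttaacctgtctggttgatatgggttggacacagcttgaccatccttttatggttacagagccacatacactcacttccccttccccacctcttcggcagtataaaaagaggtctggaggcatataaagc
Of 32851 windows of this length before gene starts, 0.356% held this motif. Of the 25 family members with a cluster and a window, 3 did, namely Cxcl1, Cxcl2 and Cxcl3, each with 1 copy of GGGAATTTCC on the gene's own strand. Its near end lay 62 bases before the start of Cxcl1, 64 before that of Cxcl3 and 88 before that of Cxcl2. The looser form, GGG, any 2 bases and TTTCC, which includes the first, was present in 5 of the 25 genes, adding Ccl9 and Ccl20, and in 1.41% of all windows. Other motifs searched on both strands were TGANTCA (an AP-1 form; 4 genes, 6.75% of windows) and TATAAA (10 genes, 12.4%). A match describes these letters only.

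Cxcl2, an early attractant released by activated macrophages and epithelium, was 6.10, 6.63, 6.18, 6.57 and 7.58 in WT 1 to WT 5, 9.83, 9.86, 7.67, 9.96 and 7.22 in HET 1 to HET 5, and 6.73, 8.37, 6.62, 7.88 and 9.65 in HOM 1 to HOM 5. Of the 5 HET tumors, 4 lay above every WT tumor, and HET 5 overlapped with WT 5. Cxcl3, a close relative, was 3.06, 3.81, 3.25, 3.31 and 6.12 in the WT tumors, 8.84, 10.90, 4.73, 9.06 and 3.78 in HET and 4.12, 6.12, 3.89, 5.12 and 6.55 in HOM. HET 1, HET 2 and HET 4 stood far above all other tumors, while 4 WT, 1 HET and 2 HOM tumors lay below the lower quartile of their arrays, so that the size of a difference against them is uncertain. Cxcl5, which epithelial cells release, was 5.35, 5.35, 6.0, 6.21 and 6.57 in WT, 8.38, 10.03, 6.22, 9.77 and 5.43 in HET and 6.31, 7.51, 5.98, 6.33 and 7.62 in HOM. The same 3 HET tumors were the highest of all. Ppbp, whose product is stored in platelets and cut to the neutrophil attractant NAP-2, was 6.66, 8.0, 6.81, 9.32 and 10.73 in WT, 11.25, 13.40, 9.54, 12.78 and 7.07 in HET, and 8.37, 10.04, 6.74, 9.19 and 9.98 in HOM. HET 1, HET 2 and HET 4 again led, but WT 5 came next and HET 5 lay within the range of the lower WT tumors.

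The other genes of this stretch of chromosome 5 did not share the whole pattern. Pf4, platelet factor 4, was 5.43 to 7.56 in WT, 9.97, 7.87, 6.97, 10.15 and 6.76 in HET 1 to HET 5, and 6.0 to 9.64 in HOM. HET 1, HET 4 and HOM 5 led, and HET 2, the tumor with the highest Cxcl3, Cxcl5 and Ppbp values, lay much closer to WT. Cxcl1, which carries the motif shown above, was 5.68, 7.27, 7.87, 6.86 and 7.37 in WT, 7.13, 8.45, 6.66, 7.70 and 7.15 in HET and 6.83, 8.10, 7.00, 7.33 and 8.25 in HOM. The genotypes overlapped almost fully, although HET 2 was the highest tumor here too. Cxcl15, known from lung epithelium, was above its array's median in HET 2 (7.75), HET 4 (5.61) and HOM 1 (5.83) and 3.97 to 5.0 elsewhere. Probes of close relatives can bind each other's transcripts, and this was not tested.

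**Figure D2:**
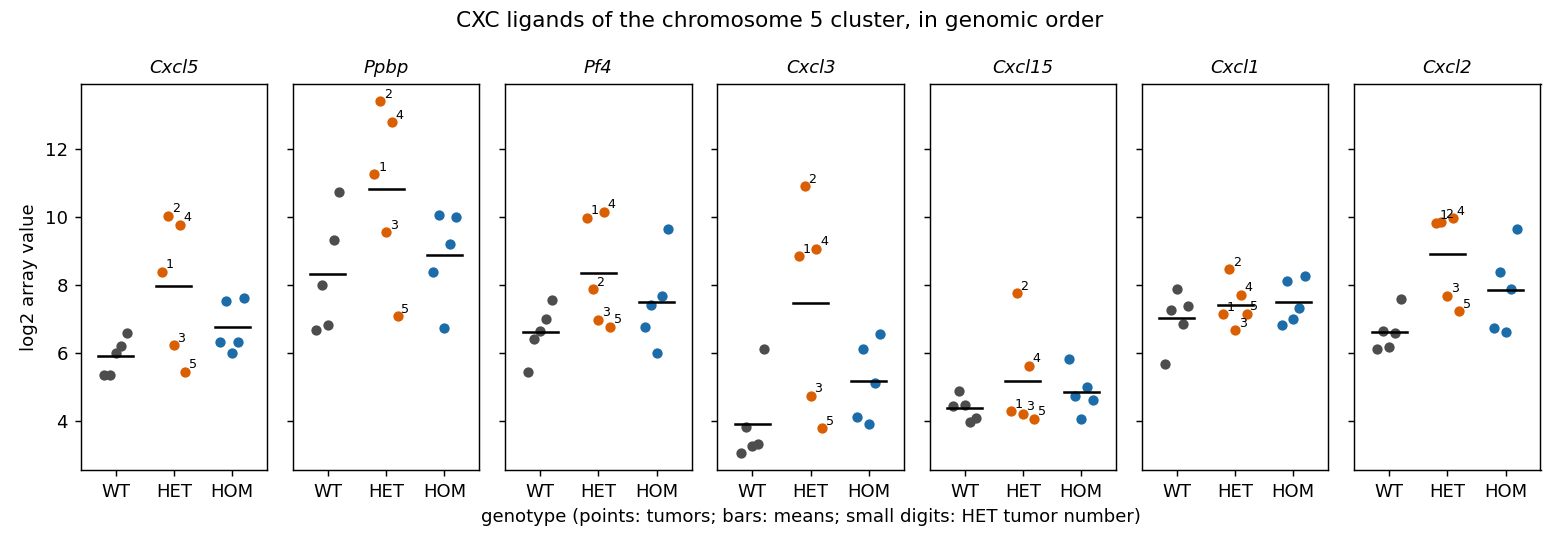
Log2 array values of the 7 CXC ligand genes of the chromosome 5 cluster in genomic order. Points are tumors, bars are genotype means (n = 5) and small digits number the HET tumors; levels of different genes cannot be compared. HET 1, HET 2 and HET 4 are the highest tumors for Cxcl5, Ppbp, Cxcl3 and Cxcl2, with Cxcl3 at 8.84 to 10.90 against at most 6.55 in the other tumors, whereas Cxcl1 overlaps between genotypes.

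Neutrophil markers, a list of 12 genes with all 12 found, moved with these ligands. Their mean was 10.39, 9.85, 7.68, 8.53 and 7.15 in HET 1 to HET 5, 6.10 to 6.94 in WT and 6.35 to 8.27 in HOM. Against WT, all 11 tested markers had higher HET means (45.5% of all genes tested), 9 of them with an unadjusted p under 0.05 (4.99%), and 0 passed adjustment by limma (0.014% in either direction). Platelet markers (7 of 8 found) peaked at 6.72 in HET 1 and ran from 5.72 to 6.41 elsewhere. Keratinocyte markers reached 9.38 in HET 2 and 9.25 in HOM 2. The part of these cells in the ligand values was not tested.

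HET and WT tumors were compared in 1 limma fit over all 14243 tested genes. No chemokine ligand passed at an adjusted p of 0.05 (0 of 33; background 0.014% of all genes tested). At an unadjusted p under 0.05, 7 ligands had a higher HET mean (background 4.99%) and 1 a lower one (background 8.38%). The median difference was 0.28 over the 33 ligands and -0.03 over all genes, with 23 ligands higher in HET (45.5% of all genes) and 10 lower. Among the 5 tested neutrophil ligands all 5 HET means were higher, with a median of 2.30. Cxcl2 had the smallest p of the family, with a HET mean of 8.91 ± 1.34 against 6.61 ± 0.59 (SD, n = 5), a 4.91-fold higher signal (log2 difference 2.30, 95% interval 0.90 to 3.69, limma adjusted p = 0.224). Cxcl3 followed with 7.46 ± 3.05 against 3.91 ± 1.27 (difference 3.55, 1.02 to 6.08, adjusted p = 0.252). Cxcl5 differed by 2.07 (0.43 to 3.71, adjusted p = 0.289) and Ppbp by 2.50 (0.06 to 4.94, adjusted p = 0.364). Pf4 differed by 1.74 (0.11 to 3.38, adjusted p = 0.351). With the pan-leukocyte mean as a covariate these differences were 1.52 for Cxcl2, 2.17 for Cxcl3, 1.25 for Cxcl5, 1.32 for Ppbp and 0.67 for Pf4. Without WT 5 and HOM 5 they were 2.54 for Cxcl2, 4.10 for Cxcl3, 2.24 for Cxcl5, 3.11 for Ppbp and 1.98 for Pf4. Without HET 5 the smallest adjusted p in the family was 0.0689, for Cxcl2, with a difference of 2.72. Leaving out HET 3 or HET 5 made the differences of Cxcl2, Cxcl3, Cxcl5, Ppbp and Pf4 larger, with 4.23 for Cxcl3 without HET 3. Leaving out HET 1 or HET 4 made all of these differences smaller. Leaving out HET 2 made them smaller except for Pf4, which rose to 1.86. Without HET 2 they were 2.69 for Cxcl3, 1.56 for Cxcl5 and 1.86 for Ppbp. Without HET 4 they were 2.03 for Cxcl2 and 1.29 for Pf4.

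Of the 9 ligands that mainly draw monocytes and macrophages, HET exceeded WT in the mean of 7 and was below it in 2, with a median difference of 0.90. Ccl3, also called MIP-1 alpha, a ligand of Ccr1, was 7.18, 8.56, 9.37, 9.39 and 9.47 in WT, 10.74, 10.07, 9.92, 11.66 and 10.02 in HET, and 8.30, 10.45, 7.98, 9.95 and 11.20 in HOM. It was the only ligand of the 33 whose HET and WT tumors did not overlap with HET higher, as in 0.534% of all tested genes. Its HET mean was 10.48 ± 0.73 against 8.79 ± 0.98 (difference 1.69, 0.35 to 3.03, adjusted p = 0.290), and the difference was 1.28 without WT 1, 1.86 without WT 5 and HOM 5 and 0.93 with the pan-leukocyte covariate. Ccl9, a Ccr1 ligand of myeloid cells, was 9.26, 9.84, 10.25, 9.43 and 10.53 in WT, 11.58, 9.99, 10.05, 11.26 and 10.94 in HET and 9.57 to 10.87 in HOM. HET 1, HET 4 and HET 5 lay above all WT tumors, and HET 2 and HET 3 lay within the WT range (difference 0.90, 0.12 to 1.68, adjusted p = 0.313), and the difference was 1.07 without WT 5 and HOM 5 and 0.45 with the covariate.

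Cx3cl1 (fractalkine), which is made as a membrane-bound molecule by epithelium and endothelium and holds cells that carry Cx3cr1, went the other way. It was 7.81, 9.96, 10.03, 10.11 and 9.52 in WT, 7.46, 8.27, 9.07, 7.95 and 9.29 in HET and 9.96, 9.46, 9.16, 9.97 and 9.74 in HOM. WT 1 was low like the HET tumors, and HET 3 and HET 5 came close to the other WT tumors. The HET mean was 8.41 ± 0.77 against 9.49 ± 0.96 in WT (difference -1.08, -2.01 to -0.15, adjusted p = 0.313), and the difference was -1.50 without WT 1 and -1.07 without WT 5 and HOM 5. Without HET 1, the tumor lowest in epithelial markers, the difference was -0.84, and with the pan-leukocyte covariate it was -1.18.

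The remaining monocyte ligands overlapped widely between genotypes. Ccl2 (MCP-1), the main Ccr2 ligand, was 7.71 to 9.34 in WT, 10.74, 9.28, 8.11, 11.01 and 9.03 in HET 1 to HET 5 and 8.16, 8.67, 8.08, 8.71 and 11.14 in HOM 1 to HOM 5. Ccl7, its neighbour with the same receptor, was 9.92, 9.21, 8.64, 11.26 and 8.10 in the HET tumors and 11.04 in HOM 5, against at most 8.90 in WT and in HOM 1 to HOM 4. HET 4 and HOM 5 were thus the highest tumors for both genes, and fibroblast markers were highest in the same tumors (11.59 and 10.13, against 6.36 to 9.79 elsewhere). Ccl6, another Ccr1 ligand, was highest in HET 1 (10.89), HET 4 (10.71) and HOM 5 (10.44) and lowest in WT 1 (6.42). Ccl8, which the list of pairs used here set against Ccr2, had its lowest value in HET 5 (4.86), with 6.76 to 10.72 elsewhere. Ccl12 and Ccl4 were dim, at 4.62 to 7.08 and 5.64 to 7.09, with HOM 5 the highest tumor for both.

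Of the 6 ligands that draw activated T and NK cells, HET had the smaller mean in 5 and the larger in 1, and none of the 6 had an unadjusted p under 0.05. Cxcl9, an interferon-gamma target, was 7.87, 9.0, 11.33, 9.19 and 8.78 in WT, 9.75, 6.64, 7.38, 8.73 and 8.33 in HET and 7.15, 7.92, 6.69, 11.39 and 9.67 in HOM. WT 3 and HOM 4 were the high tumors, and T and NK cell markers were 7.09 and 6.94 there, against 7.65 in HET 1 and 5.32 to 6.61 in the other tumors. Cxcl10 was highest in HOM 5 (9.40), HOM 4 (9.30), WT 4 (9.09), HET 5 (8.86) and WT 3 (8.59) and 5.91 to 7.63 in the others, a split that ran through all genotypes. Cxcl11, its neighbour, was highest in HET 5 (9.87), WT 3 (9.59) and HOM 4 (8.69). Ccl5 (RANTES), which T cells release after activation, was 10.88 in WT 3, 11.08 in WT 4, 10.23 in HET 1, 10.16 in HET 5 and 10.14 in HOM 4, against 7.01 to 8.83 in the other 10 tumors. Cxcl16, the ligand of Cxcr6, was even across tumors at 10.07 to 11.36. Xcl1 (lymphotactin), which draws cross-presenting dendritic cells through Xcr1, was 5.13 to 7.11 with its highest value in WT 1.

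The 250 bases before Cxcl10 are shown because they hold GAAA, any 2 bases and GAAA, a form of the interferon-stimulated response element, which is marked in capitals.
Cxcl10, chr5:92348890-92349139, minus strand: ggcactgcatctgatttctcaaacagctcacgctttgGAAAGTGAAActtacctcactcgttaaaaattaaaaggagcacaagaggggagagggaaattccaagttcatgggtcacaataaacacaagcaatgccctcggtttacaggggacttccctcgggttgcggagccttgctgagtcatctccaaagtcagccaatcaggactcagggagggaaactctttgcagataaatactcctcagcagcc
Of the 25 genes with a window, 2 held this motif on either strand (Cxcl10 and Cxcl14), against 2.98% of all windows, and the window of Cxcl9 did not. The match in Cxcl10, GAAAGTGAAA, ended 204 bases before the start.

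The ligands of eosinophils, of Th2 and regulatory T cells and of lymphoid tissue were set apart by single tumors rather than by genotype. Ccl11 (eotaxin), a Ccr3 ligand made by fibroblasts, was 10.76 in HET 4 and 10.17 in HOM 5, the tumors highest in fibroblast markers, and 5.03 in HET 5, the tumor lowest in them (6.36). The other tumors lay between 5.72 and 8.69. Ccl24 (eotaxin-2) was 8.02 in HET 4 and 4.69 to 6.81 elsewhere. Ccl17 and Ccl22, the Ccr4 ligands of dendritic cells and macrophages, were 5.43 to 9.0 and 5.06 to 7.72, both lowest in HET 5, with HOM 4 highest in Ccl17 and HET 1 in Ccl22. Ccl1 lay below the median of every array (4.48 to 5.13). Cxcl13, which organises B cell follicles through Cxcr5, was 7.93, 7.95, 8.84, 6.96 and 9.28 in WT, 12.17, 8.87, 8.10, 8.57 and 5.77 in HET and 8.67, 8.96, 7.42, 10.42 and 7.87 in HOM. HET 1, the tumor with the highest B and plasma cell markers, thus held the top value and HET 5 the bottom one. Lymph node stroma markers (6 of 8 found) reached 8.09 in HET 1, with a range of 4.86 to 6.47 elsewhere, and the follicular dendritic cell and B cell gene Cr2 was 8.96 in HET 1, 8.62 in HET 5 and 3.48 to 4.43 elsewhere. Whether HET 1 held lymph node tissue was not tested. Cxcl12, the Cxcr4 ligand of stromal cells, was 6.80 to 10.51, highest in WT 2 and in HET 4 (10.26).

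Of the ligands of mucosa and skin only Ccl20 varied by much. Ccl20, the ligand of Ccr6 made by stimulated epithelium, stood at 10.95 in HET 5, with 5.65 to 7.26 elsewhere. HET 5 also had the highest epithelial marker mean, 11.12, and the highest Nfkb2 and Nfkbia values of the 15 tumors (10.58 and 11.11). Ccl25, Ccl27a and Ccl28 spanned less than 1 each, less than the median gene. Ccl27a was measured by 2 clusters that name it alone, and the dimmer of them gave 4.45 ± 0.45 (WT), 4.80 ± 0.24 (HET) and 4.29 ± 0.33 (HOM; SD, n = 5 each), against 5.86 ± 0.22, 5.81 ± 0.16 and 6.13 ± 0.39 in the brighter cluster used here, so the order of the genotypes differed between them. Among the other ligands, Cxcl14, an epithelial chemokine, was bright throughout (10.17 to 12.46) except in HET 5 (8.73). Cxcl17, a mucosal chemokine, was 8.28 in HET 1 and 5.61 to 7.01 elsewhere.

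HOM tumors were then compared with WT and with HET tumors in the same fit. The WT tumors serve in both comparisons with WT, so these are not independent. Against WT, 0 of 33 ligands passed (background 0.0%), and 0 had an unadjusted p under 0.05 in either direction (background 0.541% higher and 1.16% lower). No ligand separated HOM from WT without overlap (background 0.112% higher and 0.169% lower). Means were higher in HOM for 25 ligands (47.2% of all genes) and lower for 8, with a median difference of 0.26 against -0.01 over all genes. Cxcl2 again had the smallest p, with 7.85 ± 1.25 in HOM and 6.61 ± 0.59 in WT (difference 1.24, -0.16 to 2.63, limma adjusted p rounding to 1.0). HOM 2, HOM 4 and HOM 5 lay above all WT tumors. The difference was 1.03 without WT 5 and HOM 5, and 0.79 without HOM 5 alone. Next came Ccl27a (0.27), Ccl3 (0.78), Ccl9 (0.44), Pf4 (0.89), Cxcl1 (0.49), Ccl24 (0.53) and Ccl5 (-0.88), each with an interval that included 0. Without WT 5 and HOM 5 these were 0.35, 0.54, 0.47, 0.59, 0.40, 0.55 and -1.11. Without WT 1 Ccl3 differed by 0.38 and Cxcl1 by 0.16, and without HOM 5 Pf4 differed by 0.35. Ccl9 differed by 0.29 without WT 1, Ccl24 by 0.29 without HOM 4, Ccl27a by 0.18 without HOM 3 and Ccl5 by -0.47 without WT 4.

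Against HET, 0 of 33 ligands passed (background 0.0%), and 1 had an unadjusted p under 0.05 with a higher HOM mean (background 4.82%) and 0 with a lower one (background 3.11%). No ligand separated HOM from HET without overlap (background 0.611% higher and 0.414% lower), and 12 of 33 had a higher HOM mean (52.4% of all genes). Cx3cl1 was that ligand, with 9.66 ± 0.35 in HOM against 8.41 ± 0.77 in HET (difference 1.25, 0.32 to 2.18, limma adjusted p = 0.587). Of the 5 HOM tumors, 4 lay above all HET tumors, and HOM 3 (9.16) lay below HET 5 (9.29). Without WT 5 and HOM 5 the difference was 1.23. The neutrophil ligands had lower HOM means for 4 of 5 genes, with intervals that included 0: Cxcl3 differed by -2.30, Ppbp by -1.95, Cxcl5 by -1.22 and Cxcl2 by -1.06 (adjusted p 0.642 to 0.690). Without HET 2, Cxcl3 differed by -1.44 and Cxcl5 by -0.70. With the pan-leukocyte mean as a covariate the 4 differences were -1.37, -1.15, -0.66 and -0.54, and without WT 5 and HOM 5 they were -2.65, -2.22, -1.44 and -1.51, in the same order. Ccl20 differed by -1.21, by -0.36 without HET 5, and by -1.39 without WT 5 and HOM 5. Ccl27a differed by 0.32 and Ccl17 by 0.85 (adjusted p = 0.658 and 0.716), and Ccl17 by 0.49 without HOM 4. Without WT 5 and HOM 5 these were 0.32 for Ccl27a and 0.73 for Ccl17, and with the covariate Ccl17 differed by 1.32.

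**Figure D3:**
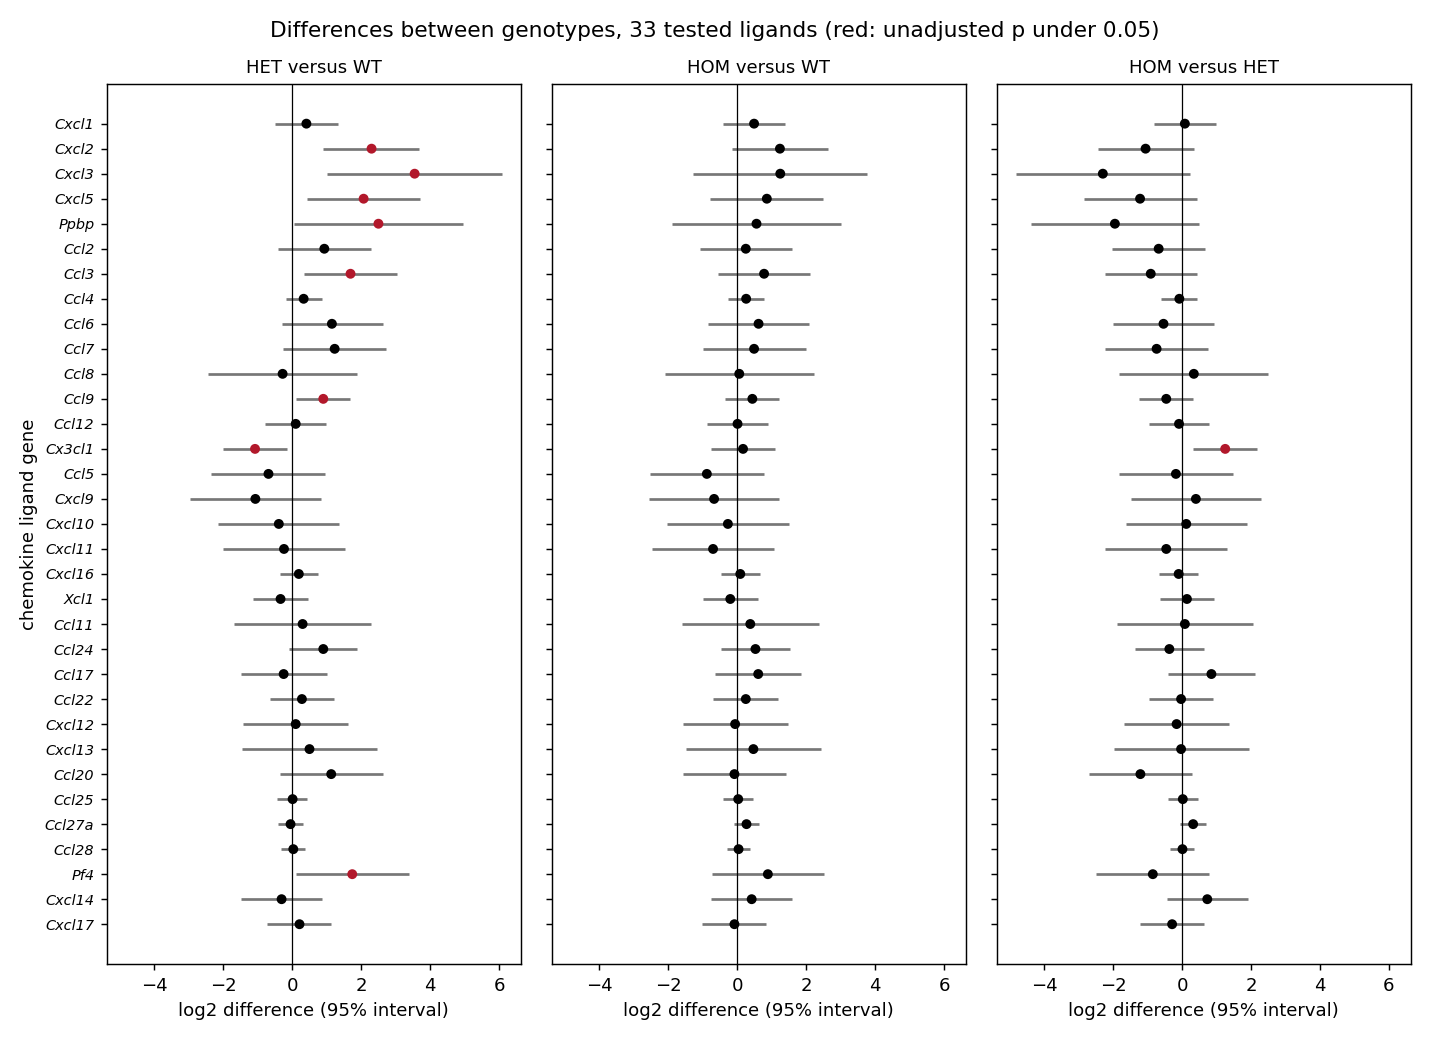
Points are log2 differences between genotype means for the 33 tested ligands, in the order of the heat map, and lines their 95% intervals from limma; red marks an unadjusted p under 0.05. In HET against WT, 7 ligands lie above 0 and Cx3cl1 below it with intervals that exclude 0, but none passed adjustment over all 14243 genes; in HOM against WT every interval includes 0.

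The receptors give the other side of the system. Of 23 receptor genes, 22 had a cluster and 14 could be tested, and 0 passed in any of the 3 comparisons. At an unadjusted p under 0.05, 5 of the 14 had a higher HET than WT mean and 0 a lower one (background 4.99% and 8.38%). Cxcr2, the neutrophil receptor for Cxcl1, Cxcl2, Cxcl3, Cxcl5 and processed Ppbp, was 6.04, 7.92, 6.58, 7.39 and 8.24 in WT, 10.70, 11.26, 8.55, 10.72 and 7.54 in HET and 7.80, 8.51, 7.17, 7.59 and 9.61 in HOM. HET 1, HET 2 and HET 4 were again the highest tumors, and HET 5 lay inside the WT range (difference 2.52, 1.01 to 4.03, limma adjusted p = 0.224). Cxcr1 (6.82 ± 0.70 against 6.03 ± 0.18) and Ackr1, an atypical receptor of venules and red cells that binds chemokines without signalling (6.66 ± 0.92 against 5.61 ± 0.40), had adjusted p of 0.266 and 0.279. Against WT the HOM tumors had the smallest p for Ccr2 (7.80 ± 0.49 and 7.10 ± 0.71), then for Cxcr2 (difference 0.90) and Cxcr1 (0.29), all with an adjusted p rounding to 1.0. HOM and HET differed by -1.62 for Cxcr2, -0.73 for Ackr1 and -0.76 for Ackr3 (adjusted p 0.600 to 0.648).

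Of 22 inducers and regulators of chemokine genes, 20 had a cluster and 14 could be tested, and 0 passed in any comparison. In HET against WT 12 of the 14 means were higher (background 45.5%), 6 with an unadjusted p under 0.05 (background 4.99%). Tnf, the cytokine that switches on NF-kappaB, was 8.94 ± 0.56 in HET and 7.79 ± 0.65 in WT (difference 1.15, 0.48 to 1.81, limma adjusted p = 0.222). By tumor it was 6.88, 7.53, 7.93, 7.96 and 8.66 in WT and 8.59, 9.62, 8.22, 8.95 and 9.32 in HET, so that WT 5 overlapped with the lower HET tumors. Nfkb2, a subunit of the noncanonical NF-kappaB pathway, differed by 0.98 (0.35 to 1.62) and the NF-kappaB inhibitor Nfkbia, itself a target of the pathway, by 0.61 (0.14 to 1.09), with adjusted p of 0.231 and 0.279. In HOM against WT the smallest p belonged to Irf7 (difference -1.21), Nfkbia (0.37) and Il1b (1.11), and in HOM against HET to Cebpb (0.43), Tnf (-0.70) and Il13 (-0.24).

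Ligands were then set against receptors listed for them across the 15 tumors, which gave 30 pairs with a cluster for both genes. In 11 pairs the correlation passed (Pearson, two-sided permutation test with 100000 resamples, Benjamini-Hochberg adjustment over the 30 pairs), and all 11 were positive. Ligands were not set against receptors outside the listed pairs. No background share therefore stands beside the 11, and whether partners correlate more than other pairs was not tested. The tightest pairs were those of Cxcr2. Cxcl2 and Cxcr2 had r = 0.95 and rho = 0.93, and Cxcl3 and Cxcr2 also had r = 0.95 and rho = 0.93 (permutation p = 1e-05 for each of the 4 values, the smallest possible; adjusted 7.5e-05 for r and 0.0001 for rho). Cxcl5 with Cxcr2 (r = 0.92, rho = 0.85) and Ppbp with Cxcr2 (r = 0.91, rho = 0.91) came next, with permutation p for r of 1e-05 (adjusted 7.5e-05) and for rho of 0.00022 (adjusted 0.00132) and 1e-05 (adjusted 0.0001). Without the 2 tumors farthest from the ligand's median, r was 0.92, 0.92, 0.85 and 0.83 in these 4 pairs. HET 1, HET 2 and HET 4 were the highest tumors in these 4 ligands but stood far from the rest only in Cxcl3. In Cxcl2, HOM 5 (9.65) came close to HET 1 (9.83), and in Ppbp WT 5 (10.73) came close to HET 1 (11.25). The other 12 tumors were also taken alone, as decided once the values were known. There r was 0.88, 0.84, 0.74 and 0.78 (permutation p adjusted over the 30 pairs 0.0013, 0.0024, 0.0204 and 0.0103). With values centred within genotype it was 0.92, 0.92, 0.87 and 0.90. Cxcl1, which shares the receptor, reached r = 0.58 and rho = 0.49 (permutation p = 0.0221 and 0.0672, adjusted 0.0543 and 0.134), and r was 0.24 without the 2 farthest tumors. It passed with values centred within genotype (r = 0.64, adjusted permutation p = 0.025) and without HET 1 (r = 0.68, adjusted permutation p = 0.0239).

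The Ccr1 ligands formed the second set. Ccl6 and Ccr1 had r = 0.89 and rho = 0.86 (permutation p = 3e-05 and 0.00012, adjusted 0.00018 and 0.0009), and r was 0.80 without the 2 farthest tumors. Ccl3 and Ccr1 had r = 0.80 and rho = 0.74 (permutation p = 0.00041 and 0.00231, adjusted 0.00205 and 0.0115), and Ccl9 and Ccr1 r = 0.74 and rho = 0.72 (0.00161 and 0.00359, adjusted 0.00604 and 0.0154), with r of 0.62 and 0.61 without the 2 farthest tumors, where neither passed (adjusted permutation p = 0.0705 for both). Ccl24 with the eosinophil receptor Ccr3 (r = 0.86, rho = 0.65, permutation p = 0.00076 and 0.0113, adjusted 0.00326 and 0.034) kept r = 0.70 without the 2 farthest tumors (adjusted permutation p = 0.0336) and had r = 0.47 without HET 1, HET 2 and HET 4 (adjusted permutation p = 0.222). Ccr3 itself was too dim to be tested between genotypes. Ccl8 with Ccr2 had r = 0.65 and rho = 0.57 (permutation p = 0.00819 and 0.029, adjusted 0.0273 and 0.079), and r was 0.69 without the 2 farthest tumors and 0.60 without HET 1, HET 2 and HET 4 (adjusted permutation p = 0.0803). Cxcl13 with Cxcr5 had r = 0.72 but rho = 0.34 (permutation p = 0.01 and 0.212, adjusted 0.0301 and 0.293), and r was 0.30 without HET 1, so the relation rested on that tumor. Cx3cl1 with Cx3cr1 had r = 0.63 and rho = 0.67 (permutation p = 0.0125 and 0.00837, adjusted 0.0341 and 0.0314), and the value depended on which tumors were kept. It was 0.29 without the 2 farthest tumors, 0.47 without HET 1, 0.62 without WT 5 and HOM 5 and 0.71 without HET 1, HET 2 and HET 4 (adjusted permutation p = 0.473, 0.141, 0.0618 and 0.0178).

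The other 19 pairs, that of Cxcl1 included, did not pass. Ccl2 and Ccr2 had r = 0.31 (rho = 0.32, permutation p = 0.254 and 0.243, adjusted 0.346 and 0.317), and Cxcl10 and Cxcr3 r = 0.11 (rho = 0.55, permutation p = 0.782 and 0.0349, adjusted 0.869 and 0.0873). Cxcr3 was 8.70 in HET 1, where Cxcl10 was 6.89, with 5.60 to 6.53 elsewhere. Without HET 1, chosen with the values known, r with Cxcr3 was 0.77 for Cxcl9, 0.64 for Cxcl11 and 0.58 for Cxcl10 (adjusted permutation p = 0.00643, 0.0351 and 0.0664), against 0.47, -0.02 and 0.11 over all 15 tumors (adjusted 0.16, 0.952 and 0.869). Over all tumors Cxcl9 and Cxcr3 passed by rank (rho = 0.65, permutation p = 0.00994, adjusted 0.0331), and with values centred within genotype r was 0.62 (adjusted permutation p = 0.025). A ligand and a receptor can also vary together because both come from the same leukocytes, and this was not tested.

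**Figure D4:**
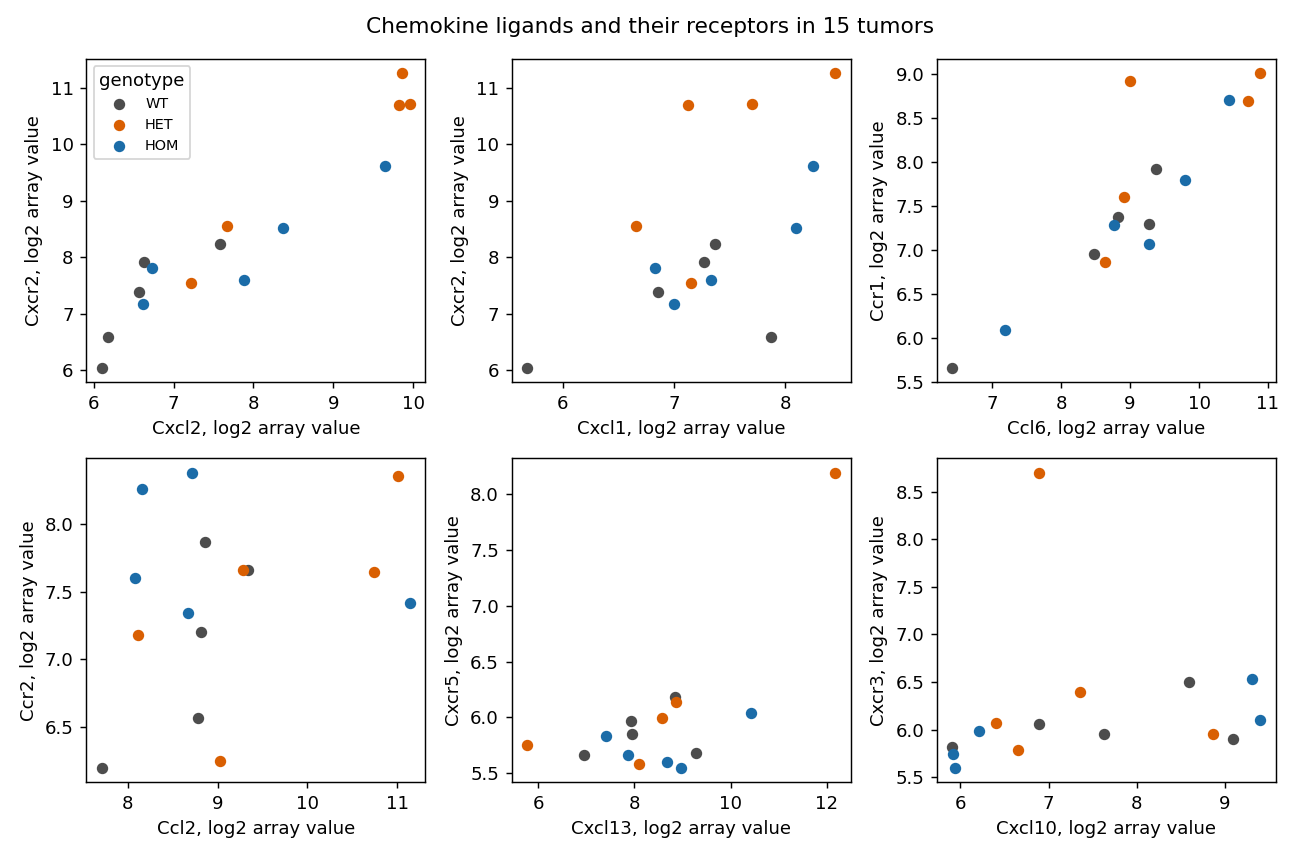
Each panel sets the log2 array value of a chemokine ligand (x axis) against that of its receptor (y axis) in the 15 tumors, coloured by genotype. Cxcl2 and Cxcr2 (r = 0.95) and Ccl6 and Ccr1 (r = 0.89) lie along a line, Cxcl1 and Cxcr2 (r = 0.58) and Ccl2 and Ccr2 (r = 0.31) scatter, and in the panels of Cxcl13 and Cxcl10 the tumor HET 1 stands alone with the highest receptor values, 8.19 for Cxcr5 and 8.70 for Cxcr3.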

How the data were processed

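Total RNA of 15 tumors was measured on Affymetrix whole-transcript arrays, from 100 ng per tumor per the labels' protocols. The deposited table holds 41345 transcript clusters. Its values run from 1.06 to 13.9 and were read as log2 intensities made by the authors. Array medians lay between 5.54 and 5.73. Transcriptome Analysis Console and Affymetrix Expression Console are listed in the submitters' processing notes; no source used here gives the background correction, normalization or versions. No scanner files were used, so no detection call was available, and the number of arrays limits the precision.

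Clusters were named through the platform annotation (23521 with 1 symbol, 1814 with several, 16010 unnamed), and 23328 matched a RefSeq table of GRCm38.p6 by Entrez ID. The brightest cluster stood for a gene. A gene was tested when it lay above its array's median on at least 5 arrays (14243 of 22180 genes). A model of the 3 genotypes was fitted by limma 3.58.1 (R 4.3.3), leaving 12 residual degrees of freedom; tests were two-sided, with Benjamini-Hochberg adjustment over all genes tested and a threshold of 0.05. Tested on simulated data for HET against WT with 14243 genes, the fit found 63 of 100 genes with a log2 change of 1 and 87 of 100 with a change of 2. The changed genes were drawn at random from all tested genes, each with its own spread. The ligands vary more than most genes (median range 3.71 against 1.14), so these rates do not carry over to them, and recovery among the ligands was not tested. Correlations used NumPy 2.4.6, the exact permutation test SciPy 1.17.1. Tumors were numbered by accession within a genotype, which pairs none of them. No label ties the tumors to mice: p-values therefore measure only the spread between these tumors, which may be technical in part. No batch was given.

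Differences are given for the 8 tested ligands with the smallest p in each comparison, receptors and regulators for the 3 smallest, and pairs for those past the threshold; others are named by level and were chosen after their values were seen. The members, lists and tests were chosen with earlier results of these data known. Alternatives were other filters, the mean of clusters, median centring, renewed quantile normalization, trended and robust eBayes, array weighting, fits of 2 genotypes, a pan-leukocyte covariate and leaving out tumors. Motifs were searched in 250 bases before gene starts, in RefSeq windows of GRCm38.p6; 25 of the 35 genes had one.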

Additional observations from a re-analysis of the deposited data

Results flagged for a closer look

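Within each genotype the highest or lowest tumor was set against the others for each of the 35 ligands, by Dixon's ratio of gap to range. Of 105 groups of 5 tumors, 7 had a tumor far from the rest, and chance alone flags about 1 in 20 groups. Ccl2 was 11.14 in HOM 5, against 8.71 in the nearest HOM tumor. Ccl8 was 4.86 in HET 5, against 9.12 in the nearest HET tumor. Ccl20 was 10.95 in HET 5, against 7.26. Ccl22 was 7.42 in HOM 4, against 6.36. Cxcl3 was 6.12 in WT 5, against 3.81. Cxcl17 was 8.28 in HET 1, against 6.09. Cx3cl1 was 7.81 in WT 1, against 9.52.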

How the results depend on the processing

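No chemokine ligand or receptor passed at an adjusted p of 0.05 in any comparison under any alternative run. The smallest adjusted p of a ligand in any of them was 0.0689 for HET against WT, 0.233 for HOM against HET and 0.999 for HOM against WT. Of 612 recomputed values of the 24 named differences, 1 changed sign: Ccl27a in HOM against HET was -0.0934 with the mean of its clusters, because its clusters differ in direction. The count of all genes called in HET against WT, 2 as reported, was 0 with the filter at the 75th percentile, with array weights and with the leukocyte covariate, 1 with renewed quantile normalization and with only the 2 genotypes compared, and 10 when HET 1 and HET 3 were both dropped, which was decided with the data known. With 1 tumor left out it ranged from 1 to 48, the highest without HET 3, and was 18 without HET 5. In HOM against HET it was 0 as reported, 0 to 3 with 1 tumor left out, 1 without HET 1 and HET 3, and 6 without WT 5 and HOM 5. In HOM against WT it was 0 as reported and 4 without WT 5 and HOM 5. The count of ligand and receptor pairs past the threshold, 11 as reported, was 8 to 13 under the 7 alternatives, and 7 of the 11 passed without the 2 tumors farthest from the ligand's median. No paired analysis was possible because the labels carry no replicate numbers. Without background readings, no value could be called below detection, which limits Ccl1, Cxcl15 and Cxcl3 most.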
